A study of Mus musculus with 9 samples.

Results

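The 10 genes described here encode the core of the mammalian Hippo pathway and its scaffolds. They are the MST kinase genes Stk3 and Stk4, the adaptor gene Sav1, the LATS kinase genes Lats1 and Lats2, the scaffold gene Nf2, the angiomotin genes Amot, Amotl1 and Amotl2, and the LIM domain gene Limd1. They were chosen by name, as the rows of 2 deposited expression tables whose Ensembl identifiers carry these symbols in GENCODE vM21, and they are 10 of the 16962 genes in either table. All 10 had a row in both tables and passed the filter for testing, an FPKM (mapped fragments, per kilobase of a transcript's length and per M fragments of the library) of 1 or more in 3 or more of the libraries compared.

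RNA of 4T1 cells, a transplantable mouse mammary carcinoma line, was sequenced in 9 libraries. The 3 shCTRL libraries carried a negative control hairpin in cells labelled wild type, and 3 libraries each carried shYap-1 or shYap-2, hairpins that knock down Yap1. No drug, time point or further allele is given in the labels, and all groups share the 4T1 background. How the hairpins were delivered, and whether the replicates are separate cultures, is not given in the labels, so p-values measure only the spread between these libraries, which may be technical.

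Hippo signalling is a kinase cascade. MST kinases, held by the adaptor SAV1, activate the LATS kinases, which phosphorylate YAP and its paralogue TAZ and so keep them out of the nucleus, while NF2 and the angiomotins bring the kinases and YAP together at membranes and junctions. Several genes of the cascade, LATS2 and AMOTL2 among them, are known targets of YAP and TAZ bound to TEAD factors, an arrangement described as negative feedback. The series asks which genes change after Yap1 knockdown.

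Promoter windows from RefSeq, 250 bases before to 50 after an annotated start on GRCm38.p6, are shown for the 3 members that hold the TEAD core motif and for Amot, the member with the largest rise. The motif was searched as GGAATG and its reverse complement CATTCC, and a match stands in capitals. The windows are read 5′ to 3′ along the gene. Amotl2 lies at chr9:102717554-102717853 on the plus strand, and Sav1 at chr12:69986953-69987252, Lats2 at chr14:57746074-57746373 and Amot at chrX:145487590-145487889 on the minus strand.
Amotl2: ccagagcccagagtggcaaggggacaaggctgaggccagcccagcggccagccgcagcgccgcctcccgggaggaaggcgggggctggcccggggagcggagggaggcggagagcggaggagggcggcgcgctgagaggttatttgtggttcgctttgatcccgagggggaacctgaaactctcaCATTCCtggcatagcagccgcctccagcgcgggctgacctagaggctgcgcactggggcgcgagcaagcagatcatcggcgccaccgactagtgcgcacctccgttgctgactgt
Sav1: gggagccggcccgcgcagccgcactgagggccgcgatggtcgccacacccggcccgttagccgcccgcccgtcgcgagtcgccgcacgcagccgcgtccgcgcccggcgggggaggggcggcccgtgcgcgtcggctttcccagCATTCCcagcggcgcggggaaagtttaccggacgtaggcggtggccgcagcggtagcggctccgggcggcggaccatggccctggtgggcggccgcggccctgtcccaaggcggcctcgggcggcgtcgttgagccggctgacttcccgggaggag
Lats2: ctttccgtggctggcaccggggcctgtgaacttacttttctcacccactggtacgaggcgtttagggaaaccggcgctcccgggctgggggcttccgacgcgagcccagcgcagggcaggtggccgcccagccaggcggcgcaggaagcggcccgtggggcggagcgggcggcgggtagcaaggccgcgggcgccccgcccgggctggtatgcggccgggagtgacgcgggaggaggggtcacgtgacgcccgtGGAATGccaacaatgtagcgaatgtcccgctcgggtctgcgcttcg
Amot: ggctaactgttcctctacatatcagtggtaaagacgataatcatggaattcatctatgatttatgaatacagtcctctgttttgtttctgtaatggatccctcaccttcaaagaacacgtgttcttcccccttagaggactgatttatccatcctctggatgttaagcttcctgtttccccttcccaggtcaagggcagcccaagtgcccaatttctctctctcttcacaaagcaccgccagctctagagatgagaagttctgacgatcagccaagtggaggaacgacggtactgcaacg
In Amotl2 the match began 65 bases upstream of the start and in Sav1 106 bases upstream, whereas in Lats2 it lay 4 bases downstream of it. RefSeq windows were at hand for 8 of the 10 members (10 windows in all, with a second start for Lats2 and for Nf2), and the other 7 windows held no match. Stk3 and Limd1 had no window. The windows of Amot, Amotl1, Amotl2, Lats2 and Stk4 lie inside the gene, so its outermost GENCODE start was not searched. The motif stood in 14.7% of all 32851 mouse windows and in 11.9% of the 10906 windows of genes tested here. A match describes letters only and is neither a binding site nor a cause.

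Yap1 itself read 49.26, 48.31 and 48.81 FPKM under the control hairpin, 8.03, 9.05 and 9.23 under shYap-1, and 11.04, 10.37 and 9.79 under shYap-2. Its mean was therefore 18% and 21.3% of shCTRL. Wwtr1, which encodes TAZ, fell from a mean of 32.4 to 27.8 and 27.3 FPKM (log2 fold change -0.22, adjusted p = 0.00978, and -0.24, adjusted p = 0.000342; limma). Once each library was corrected for a trend on GC content, the Wwtr1 changes were -0.07 (adjusted p = 0.433) and -0.12 (adjusted p = 0.0194). Depth, estimated from the values, was 19.55 to 28.35 M fragments per library. The replicate 2 library of shYap-1 stood apart: it held the lowest or highest value of all 9 libraries for 52.3% of the 10733 genes tested, against 5.67% to 36% in each of the others. Deviations from the group mean correlated with gene GC content within shYap-1 (Spearman's rho from -0.641 to 0.706 over 10731 genes, not independent of each other) and within shCTRL (-0.38 to 0.386), and ranged from -0.194 to 0.094 within shYap-2. Deviations of 3 libraries from their mean sum to 0, so these values do not show which library departs. All 6 epithelial marker genes listed were expressed, with summed FPKM of 2110 to 2230 in shCTRL, 2420 to 2770 with shYap-1 and 2540 to 2580 with shYap-2. None of 8 endothelial markers and 1 of the 7 measured leukocyte markers, Csf1r, reached 1 FPKM in any library. The endothelial sums lay between 0.09 and 0.43, and the leukocyte sums were 0.21 to 0.96 in shCTRL, 1.1 to 2.02 under shYap-1 and 0.59 to 1.03 under shYap-2, the second group above the first. Among 7 fibroblast markers only Postn reached 1 FPKM, and the summed level was 5.33 to 5.95 in shCTRL, 13.9 to 16.6 with shYap-1 and 10.9 to 11.9 with shYap-2. The part of these markers in the results was not tested.

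The 10 genes did not move as a block. With both hairpins Amot, Limd1 and Stk4 rose, Amotl2, Lats2, Sav1 and Lats1 fell, and Nf2 and Amotl1 were not called. Stk3 was called lower with shYap-2 and missed the threshold with shYap-1, with a difference between the hairpins of -0.01 (adjusted p = 0.974). In RNA of whole cultures, fewer cells of a kind and less RNA per cell cannot be told apart. Each hairpin was compared with shCTRL by limma on log2(FPKM + 1), with Benjamini-Hochberg adjustment over all genes tested and a threshold of 0.05, and every fold change below is a log2 difference on that scale, which understates changes of genes with low values. With shYap-1, 7 of 10 members were called, 3 up and 4 down, where 65.2% of all 10647 tested genes were called (37.6% up and 27.6% down). With shYap-2 it was 8 of 10, 3 up and 5 down, against 73.7% of 10615 genes (43.2% up and 30.5% down). The shares called were thus near the background, and the median change of the members was -0.14 and -0.13 beside 0.07 and 0.08 over all tested genes. With trimmed-mean scaling rises made up 50.5% and 50.0% of all genes called, against 57.6% and 58.6% without it. Replicate values did not overlap with those of shCTRL in 7 members for each hairpin, where 71.2% and 76.6% of tested genes did not overlap. Both comparisons use the same 3 shCTRL libraries.

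**Figure D1:**
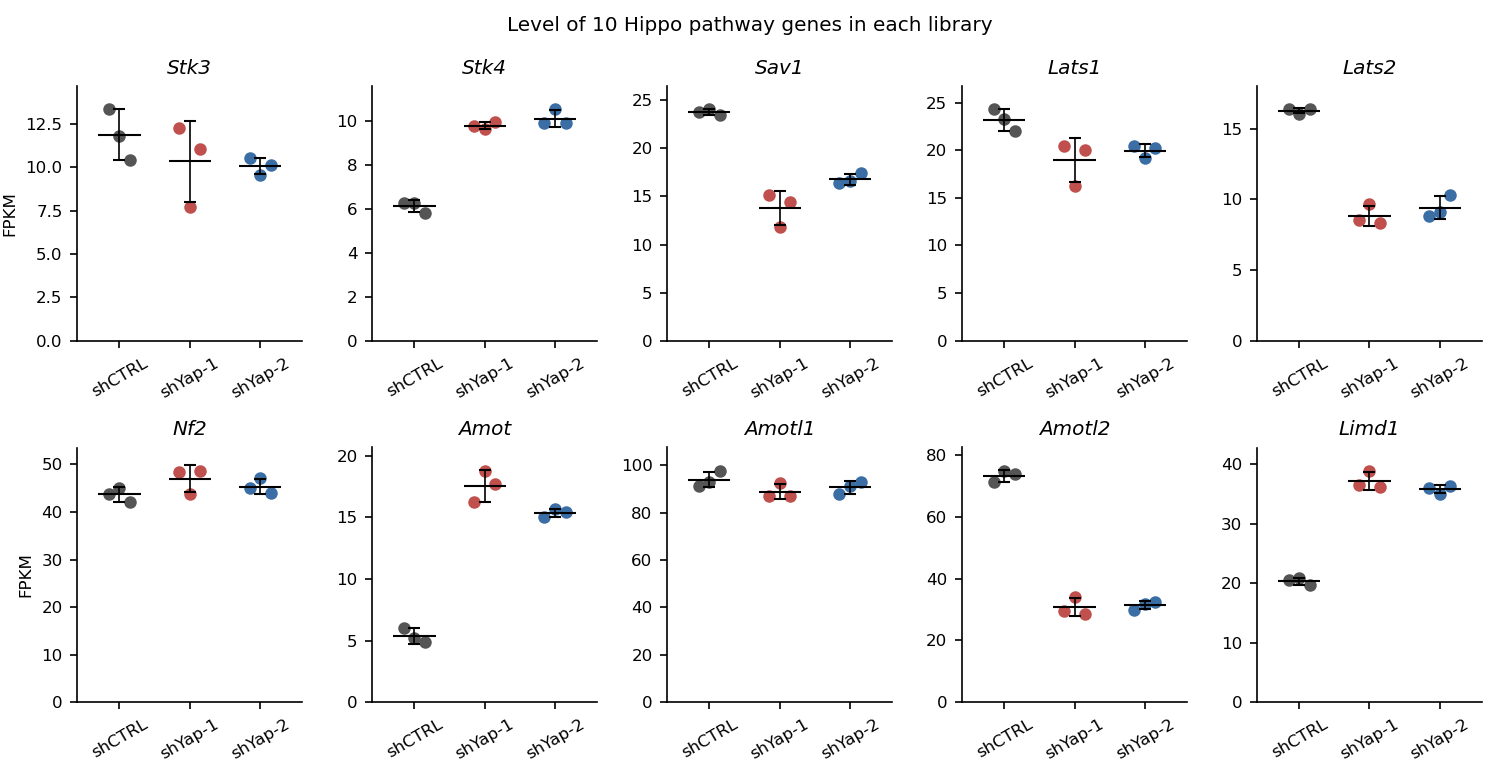
Level of each member gene in FPKM (y axis, from 0, with its own scale per gene) in shCTRL, shYap-1 and shYap-2. Points are single libraries and the line and bars are the mean and SD of 3 libraries; Amot, Limd1 and Stk4 lie wholly above their shCTRL points with both hairpins, Amotl2, Lats2, Sav1 and Lats1 wholly below, and Stk3, Nf2 and Amotl1 overlap.

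Of the MST kinases, which start the cascade, 1 rose. Stk4 (MST1; ENSMUSG00000018209, chr2:164070322-164155524 on GRCm38) read 6.29, 6.28 and 5.82 FPKM in shCTRL, 9.8, 9.64 and 9.96 under shYap-1, and 9.91, 10.55 and 9.91 under shYap-2. Every knockdown library was above every control library. The means were 6.13 ± 0.269, 9.80 ± 0.16 and 10.1 ± 0.37 (SD, n = 3 each), a rise of 1.6-fold and 1.65-fold (log2 0.60, SE 0.0712, limma adjusted p = 0.00024; log2 0.64, SE 0.0597, adjusted p = 1.06e-05). Stk3 (MST2; ENSMUSG00000022329, chr15:34875496-35178921) read 13.35, 11.82 and 10.41 in shCTRL, 12.24, 7.72 and 11.08 under shYap-1, and 10.53, 9.57 and 10.13 under shYap-2. Both knockdown groups overlapped with the controls, and the lowest value of all was that of shYap-1 replicate 2. Its change with shYap-1 was -0.20 (SE 0.165, limma adjusted p = 0.325), with a 95% interval of -0.58 to 0.19, the widest of the 10. It was -0.02 without shYap-1 replicate 2 (adjusted p = 0.883). The call with shYap-2 (-0.21, SE 0.0838, adjusted p = 0.0465) was lost under 10 of 16 alternative settings, among them leaving out either shCTRL replicate 1 (-0.13, adjusted p = 0.147) or any 1 of the shYap-2 libraries (-0.24 to -0.18, adjusted p = 0.0554 to 0.136), and with a GC trend removed it was -0.05 (adjusted p = 0.534).

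In shCTRL the pair was led by Stk3 and after knockdown both genes stood level. The share of Stk4 in the summed FPKM of the pair was 32.0%, 34.7% and 35.9% in the controls, 44.5%, 55.5% and 47.3% under shYap-1, and 48.5%, 52.4% and 49.5% under shYap-2. The groups did not overlap, and the difference from shCTRL was 14.9 and 15.9 percentage points (exact two-sided permutation p = 0.1 for each, the smallest that 3 against 3 libraries allow, and 0.1 after adjustment over the 10 share comparisons). The summed FPKM of the pair was 18 ± 1.71 in shCTRL, 20.1 ± 2.46 with shYap-1 and 20.2 ± 0.212 with shYap-2. In shYap-1 the sums of 22.04, 17.36 and 21.04 FPKM overlapped with the 19.64, 18.1 and 16.23 of the controls, whereas the shYap-2 sums of 20.44, 20.12 and 20.04 lay above them.

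The adaptor gene fell. Sav1, whose product binds the MST kinases through a shared SARAH domain and helps to activate them (ENSMUSG00000021067, chr12:69965012-69987002), read 23.79, 24.08 and 23.43 FPKM in shCTRL. It read 15.11, 11.84 and 14.46 under shYap-1 and 16.36, 16.57 and 17.41 under shYap-2, so that the 3 groups were separate and shYap-1 was the lowest. The means of 23.8 ± 0.326, 13.8 ± 1.73 and 16.8 ± 0.556 (SD, n = 3 each) put the knockdowns at 58.1% and 70.6% of shCTRL. The log2 changes were -0.75 (SE 0.0945, limma adjusted p = 0.000321) and -0.48 (SE 0.0443, adjusted p = 1.03e-05). With a GC trend removed they were smaller, at -0.55 (limma adjusted p = 4.26e-05) and -0.32 (adjusted p = 0.000256). Sav1 overlaps over 1336 exonic bases with Atl1, which is read from the opposite strand, and the use of strand in the authors' quantification is not stated. Atl1 was low, at 0.34 to 1.57 FPKM in shCTRL, 1.94 to 2.46 with shYap-1 and 1.12 to 3.18 with shYap-2.

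Both LATS kinase genes, whose products phosphorylate YAP, fell, with the larger fold change in Lats2. Lats2 (ENSMUSG00000021959, chr14:57689662-57758388), a known YAP target, read 16.38, 16.08 and 16.39 FPKM in shCTRL, 8.53, 9.65 and 8.32 under shYap-1, and 8.8, 9.08 and 10.32 under shYap-2. No knockdown library came near the tight control values. The means of 16.3 ± 0.176, 8.83 ± 0.715 and 9.40 ± 0.809 (SD, n = 3 each) amount to 54.2% and 57.7% of shCTRL (log2 -0.82, SE 0.0764, limma adjusted p = 7.3e-05; log2 -0.74, SE 0.0632, adjusted p = 6.12e-06). Lats2 shares 2955 exonic bases on the same strand with the gene model Gm49361. That model read 0, 1.71 and 0 FPKM in shCTRL and 0.6, 2.11 and 1.31 under shYap-1, and had no values for shYap-2. A division of reads between Gm49361 and Lats2 was not tested. Lats1 (ENSMUSG00000040021, chr10:7681214-7716460) read 24.31, 23.32 and 21.99 in shCTRL, 20.48, 16.29 and 20.04 under shYap-1, and 20.46, 19.19 and 20.21 under shYap-2. The groups did not overlap, but the gap was narrow, and replicate 2 of shYap-1 was again the lowest library. The changes were -0.29 (SE 0.0973, limma adjusted p = 0.0336) and -0.21 (SE 0.051, adjusted p = 0.00491). The first was -0.19 without shYap-1 replicate 2 (adjusted p = 0.0204) and -0.12 with a GC trend removed (adjusted p = 0.0494). It was not called without shCTRL replicate 1 (-0.25, adjusted p = 0.11), 2 (-0.28, adjusted p = 0.0921) or 3 (-0.32, adjusted p = 0.052), and the second not after removal of a GC trend (-0.08, adjusted p = 0.107) or with all 9 libraries in 1 fit (-0.21, adjusted p = 0.0541).

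The LATS pair was lower in sum, with a smaller Lats2 share, in every knockdown library. Its summed FPKM was 39.5 ± 1.16, 27.8 ± 1.62 and 29.4 ± 1.13, or 70.3% and 74.3% of shCTRL. The Lats2 share was 40.3%, 40.8% and 42.7% in shCTRL, 29.4%, 37.2% and 29.3% under shYap-1, and 30.1%, 32.1% and 33.8% under shYap-2, without overlap. The mean difference was -9.28 and -9.26 percentage points (exact two-sided permutation p = 0.1 for each, the smallest possible, 0.1 adjusted).

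The upstream scaffold Nf2 was not called with either hairpin. Nf2, which encodes merlin, a tumour suppressor that recruits LATS kinases to the membrane (ENSMUSG00000009073, chr11:4765845-4849536), read 43.84, 45.14 and 42.15 FPKM in shCTRL, 48.52, 43.72 and 48.7 under shYap-1, and 45.03, 47.07 and 43.94 under shYap-2. The groups overlapped. The log2 differences were 0.10 (95% interval -0.05 to 0.25, limma adjusted p = 0.212) and 0.05 (-0.04 to 0.15, adjusted p = 0.29), so changes beyond 0.25 in either direction lie outside both intervals. Without shYap-1 replicate 2 the first became 0.15 and was called (adjusted p = 0.0189), and with a GC trend removed it was -0.02.

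The angiomotin genes, whose products bind YAP and LATS kinases at tight junctions and on actin, went in opposite directions. Amot (ENSMUSG00000041688, chrX:145446425-145505181) read 6.06, 5.18 and 4.86 FPKM in shCTRL, 16.22, 18.79 and 17.69 under shYap-1, and 15.04, 15.66 and 15.43 under shYap-2. Every knockdown library exceeded every control by a wide margin. The means of 5.37 ± 0.621, 17.6 ± 1.29 and 15.4 ± 0.313 (SD, n = 3 each) put the knockdowns at 3.27-fold and 2.87-fold the shCTRL level (log2 1.55, SE 0.0973, limma adjusted p = 1.16e-05; log2 1.37, SE 0.0745, adjusted p = 3.35e-07), a change above that of 97.2% and 97.4% of the tested genes. Amotl2 (ENSMUSG00000032531, chr9:102716672-102733418), a known YAP target whose promoter window holds the TEAD motif shown above, read 71.2, 75.01 and 73.98 in shCTRL, 29.61, 34.0 and 28.69 under shYap-1, and 29.94, 31.71 and 32.59 under shYap-2. The control and knockdown libraries lay far apart and the knockdown groups lay over each other. The means of 73.4 ± 1.97, 30.8 ± 2.84 and 31.4 ± 1.35 put the knockdowns at 41.9% and 42.8% of shCTRL (log2 -1.23, SE 0.0752, limma adjusted p = 1.05e-05; log2 -1.20, SE 0.0425, adjusted p = 3.07e-08). Only 1.81% and 1.01% of tested genes had a lower fold change.

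Amotl1 (ENSMUSG00000013076, chr9:14541966-14645056), the most abundant member in every library, read 91.36, 92.93 and 97.76 FPKM in shCTRL, 87.07, 92.43 and 86.91 under shYap-1, and 87.77, 91.33 and 92.86 under shYap-2. The groups overlapped. Its differences were -0.08 (95% interval -0.21 to 0.05, limma adjusted p = 0.234) and -0.05 (-0.14 to 0.03, adjusted p = 0.243). It passed the threshold as a small fall when libraries were rescaled by a trimmed mean (-0.17, adjusted p = 0.0458, and -0.14, adjusted p = 0.0138) or when a GC trend was removed (-0.15, adjusted p = 0.0106, and -0.10, adjusted p = 0.0219).

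The summed level of the angiomotin genes was lower after knockdown, at 173 ± 4.0 FPKM in shCTRL against 137 ± 7.0 and 137 ± 4.21 in the knockdowns (79.4% and 79.5%). The Amotl2 share was 42.2%, 43.3% and 41.9% in shCTRL, 22.3%, 23.4% and 21.5% under shYap-1, and 22.6%, 22.9% and 23.1% under shYap-2. The Amot share was 3.59%, 2.99% and 2.75%, then 12.2%, 12.9% and 13.3%, then 11.3%, 11.3% and 11% in the same order. Neither share overlapped between control and knockdown libraries, and the differences from shCTRL were -20.1 and -19.6 percentage points for Amotl2 and 9.69 and 8.08 for Amot. The Amotl1 share had a mean of 54.4% in shCTRL, 64.8% with shYap-1 and 66% with shYap-2, while its own level was not called different. Each of these comparisons had an exact two-sided permutation p = 0.1, the smallest possible.

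**Figure D2:**
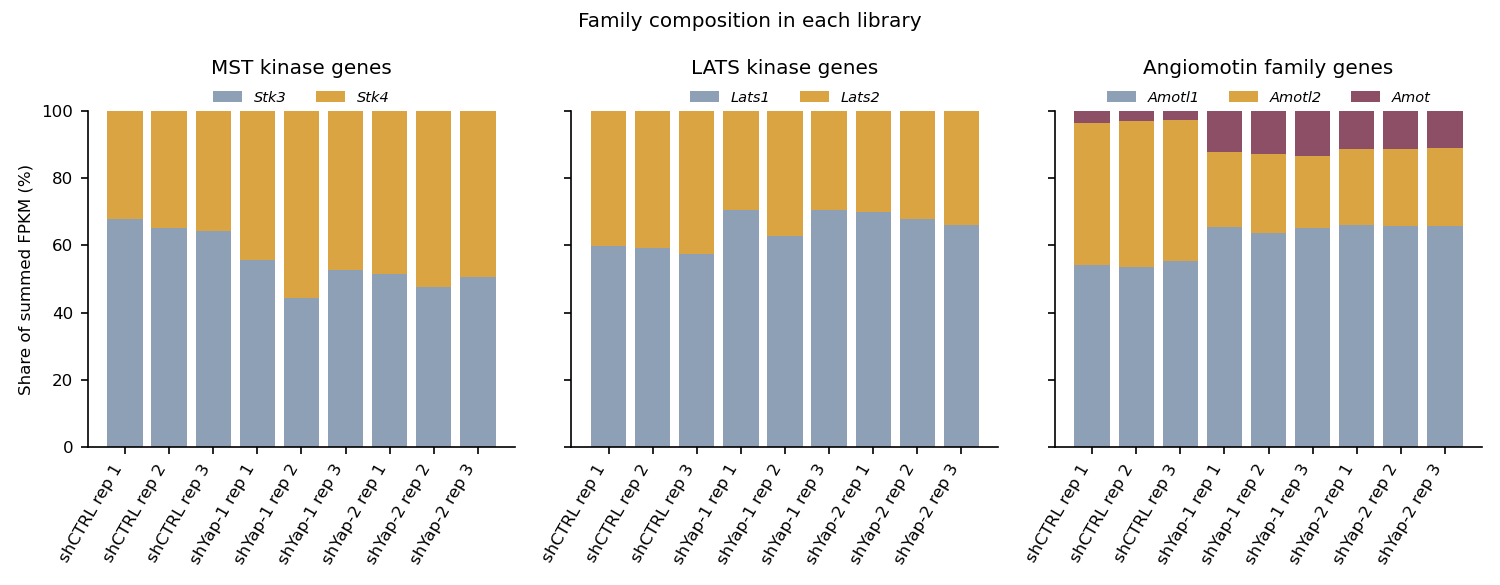
Share of each gene in the summed FPKM of its family (y axis, percent), for the MST kinase, LATS kinase and angiomotin genes in each of the 9 libraries (rep, replicate). The Stk4 and Amot shares are larger in every knockdown library than in any shCTRL library, and the Lats2 and Amotl2 shares are smaller.

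Limd1, a LIM protein of the Ajuba family that binds LATS kinases (ENSMUSG00000025239, chr9:123478706-123521552), rose. It read 20.47, 20.82 and 19.64 FPKM in shCTRL, 36.52, 38.88 and 36.13 under shYap-1, and 35.94, 35.02 and 36.31 under shYap-2. All knockdown libraries lay above all controls. The means of 20.3 ± 0.606, 37.2 ± 1.49 and 35.8 ± 0.664 (SD, n = 3 each) put the knockdowns at 1.83-fold and 1.76-fold the shCTRL level (log2 0.84, SE 0.0613, limma adjusted p = 2.18e-05; log2 0.79, SE 0.0414, adjusted p = 2.71e-07).

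**Figure D3:**
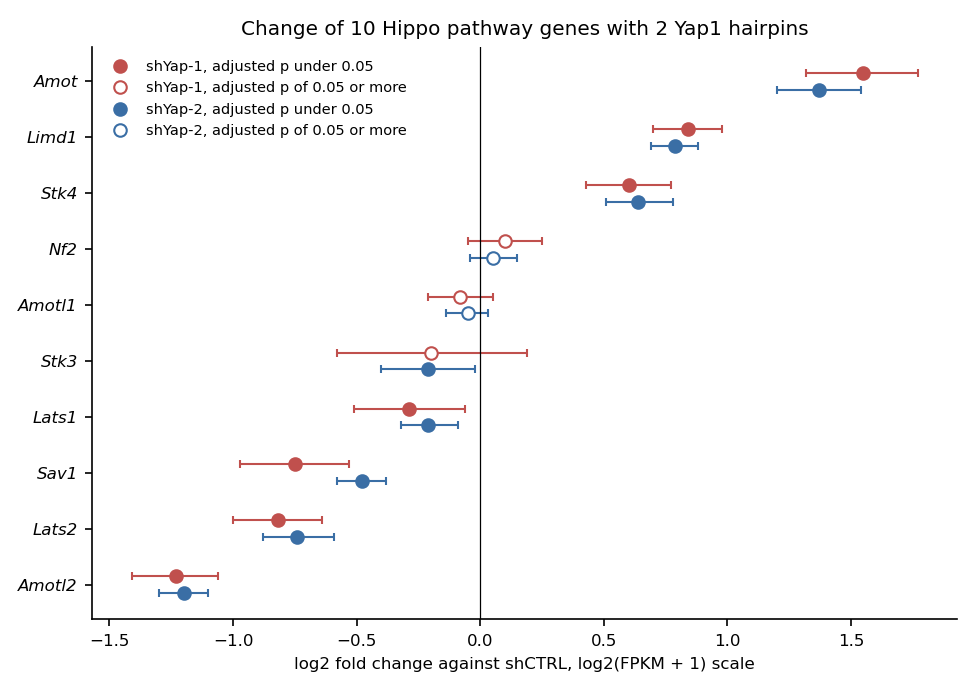
log2 fold change of each member against shCTRL on the log2(FPKM + 1) scale (x axis) with 95% intervals from limma, for shYap-1 and shYap-2 (3 libraries against 3 each). Filled points have an adjusted p under 0.05; Amot at 1.55 and 1.37 and Amotl2 at -1.23 and -1.20 mark the ends.

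The order of the members' levels, compared per length as FPKM, changed with these shifts. In shCTRL it ran from Amotl1 through Amotl2, Nf2, Sav1, Lats1, Limd1, Lats2 and Stk3 to Stk4 and Amot, where Sav1 and Lats1, and Stk4 and Amot, overlapped with their neighbour. With shYap-1 it ran Amotl1, Nf2, Limd1, Amotl2, Lats1, Amot, Sav1, Stk3, Stk4 and Lats2, with overlap between Lats1 and Amot and between each neighbouring pair from Sav1 to Lats2. With shYap-2 the order was Amotl1, Nf2, Limd1, Amotl2, Lats1, Sav1, Amot, Stk4, Stk3 and Lats2, and the last 3 overlapped. Limd1 thus stood above Amotl2 in both knockdown groups and below it in shCTRL.

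No member was called different between the hairpins. In 1 fit of all 9 libraries, 0 of 10 members passed the threshold for shYap-2 minus shYap-1, where 3.29% of 10733 tested genes did (limma), and 1 member had an unadjusted p under 0.05. That member was Sav1, which was higher with shYap-2 by 0.27 on the log2 scale (SE 0.0821, 95% interval 0.09 to 0.45, adjusted p = 0.103). The Sav1 difference was called without shYap-1 replicate 2 (0.17, adjusted p = 0.0408) and with a GC trend removed (0.23, adjusted p = 0.0195). Amot had a difference of -0.18, lower with shYap-2 (95% interval -0.36 to 0.01, adjusted p = 0.264). Stk3 had the widest interval, -0.34 to 0.31. Yap1 differed by 0.22 (adjusted p = 0.0992) in the same fit. These intervals, and not the missing calls, bound how far the hairpins may differ.

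Members that fell included the 3 whose window holds the TEAD motif, Amotl2, Sav1 and Lats2. The motif did not mark falling genes in the table as a whole: with shYap-1, 27.1% of 1190 tested genes with the motif fell and 27.8% of 7278 without it, and with shYap-2 28.8% of 1185 and 30.7% of 7267. GC content, which was not used to choose the members, was 38.4% in Stk3, 40.0% in Sav1 and 43.0% in Lats1, the lowest of the 10. These were also the 3 members with their lowest value of all 9 libraries in shYap-1 replicate 2. Amot (46.7% GC) and Limd1 (52.4%) had their highest value there. That library held the lowest or highest value for 5 of 10 members, and for 52.3% of all 10733 genes tested. The shCTRL replicate 3 library, used in both comparisons, held it for 6 of 10 members and for 24.6% of those genes.

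Gene profiles most like those of 3 members were looked up among 8337 genes with a mean of at least 5 FPKM, by the root mean square difference of log2(FPKM + 1), centred on its mean, over the 9 libraries. For Amot these were Erf (0.0655), Il6ra (0.07) and B3gat3 (0.0736), for Amotl2 Slc39a14 (0.0498), Adnp (0.0606) and Csf3 (0.0616), and for Lats2 Atp5l (0.0421), Ankrd10 (0.0438) and Nle1 (0.0445). Slc39a14, a zinc transporter gene, had mean levels of 48.9, 19.7 and 20.7 FPKM in shCTRL, shYap-1 and shYap-2. Erf, which encodes an ETS repressor, had 37.4, 110 and 104 FPKM.

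Beyond the 10, lists of 62 further pathway genes held 58 that were tested. With shYap-1, 15 rose and 15 fell (51.7% called, beside 65.2% of all genes), and with shYap-2, 22 rose and 23 fell (77.6%, beside 73.7%). Their median change was 0.0 and -0.01, and 0 of the 58 were called different between hairpins (4 without shYap-1 replicate 2). The shYap-1 count of called genes was 39 without its replicate 2. The gene order below follows the pathway, with shYap-1 before shYap-2, all log2 changes from limma.

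The first list held 18 tested genes for activators of the MST and LATS kinases, or for kinases related to LATS. Of these, 3 were called up and 6 down with shYap-1, and 5 up and 9 down with shYap-2. Wwc1, which encodes the NF2 partner KIBRA, fell from 56.4 ± 0.52 to 35.2 ± 3.44 and 36.6 ± 0.511 FPKM (-0.67, adjusted p = 0.000191, and -0.61, adjusted p = 3.6e-07). Map4k5, a kinase gene that acts on LATS in parallel to MST, fell (-0.62, adjusted p = 0.000917, and -0.49, adjusted p = 3.23e-05). Taok2, a kinase upstream of MST, rose by 0.59 (adjusted p = 0.000708) and 0.50 (adjusted p = 0.000113), and Stk38l, an NDR kinase related to LATS, by 0.56 (adjusted p = 0.000436) and 0.48 (adjusted p = 0.000192). Among 12 tested genes of STRIPAK, the phosphatase complex that restrains MST, 4 were called up and 1 down with shYap-1, and 7 up and 4 down with shYap-2. Sike1, a STRIPAK subunit, rose from 16.7 ± 0.445 to 25.6 ± 0.35 and 24.8 ± 0.931 FPKM (0.59, adjusted p = 0.000103, and 0.54, adjusted p = 6.26e-06). The phosphatase scaffold gene Ppp2r1a rose by 0.35 (adjusted p = 0.00513) and 0.28 (adjusted p = 0.000275), or 0.20 and 0.16 with a GC trend removed. Strn fell (-0.18, adjusted p = 0.0368, and -0.22, adjusted p = 0.00161), the first of which was not called with a GC trend removed (-0.05, adjusted p = 0.449, and -0.11 for the second) or without any 1 shCTRL library (-0.19 to -0.17).

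The LIM proteins related to Limd1 went in both directions. Ajuba, like Limd1 a binder of LATS kinases, fell from 64.4 ± 0.426 to 38.8 ± 3.29 and 38.6 ± 1.07 FPKM (-0.72 with each hairpin, adjusted p = 8.91e-05 and 1.72e-07). Trip6, of the zyxin group, fell (-0.62, adjusted p = 0.00012, and -0.53, adjusted p = 5.22e-06), whereas Zyx rose by 0.48 (adjusted p = 0.00272) and 0.30 (adjusted p = 7.99e-05), or 0.31 and 0.16 with a GC trend removed. These 3 were the called genes among 4 tested of that list. Of 13 genes for ubiquitin ligases, casein kinases and tankyrases that act on Hippo proteins, 3 rose and 3 fell, and then 5 and 5. Btrc, which encodes a ligase subunit for YAP, rose by 0.62 (adjusted p = 0.000447) and 0.47 (adjusted p = 2.84e-05). Csnk1e, which encodes a casein kinase that acts on YAP, rose by 0.57 (adjusted p = 0.00115) and 0.49 (adjusted p = 8.81e-06). Siah2, a ligase for LATS2, fell (-0.63, adjusted p = 0.000997, and -0.54, adjusted p = 9.61e-05), and Tnks2, a tankyrase that marks angiomotins for degradation, fell as well (-0.36, adjusted p = 0.00116, and -0.27, adjusted p = 0.000136, or -0.22 and -0.16 with a GC trend removed). Of 11 tested polarity and junction genes, 4 rose and 3 fell with each hairpin. Patj, a Crumbs complex gene, rose by 0.72 (adjusted p = 0.000119) and 0.59 (adjusted p = 1.76e-05), Crb3 by 0.64 (adjusted p = 0.000815) and 0.59 (adjusted p = 0.00011) and the protocadherin gene Fat1 by 0.36 (adjusted p = 0.000721) and 0.31 (adjusted p = 2.37e-05). Dlg1, of the Scribble group, fell (-0.48, adjusted p = 0.000206, and -0.36, adjusted p = 3.91e-05). With a GC trend removed, Dlg1 was -0.33 and -0.24, Crb3 0.46 and 0.44, Csnk1e 0.40 and 0.36, and Taok2 0.41 and 0.35. Changes of Map4k5, Fat1 and Patj were then smaller too. Those of Wwc1, Stk38l, Sike1, Ajuba, Trip6, Btrc and Siah2 were larger.

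**Figure D4:**
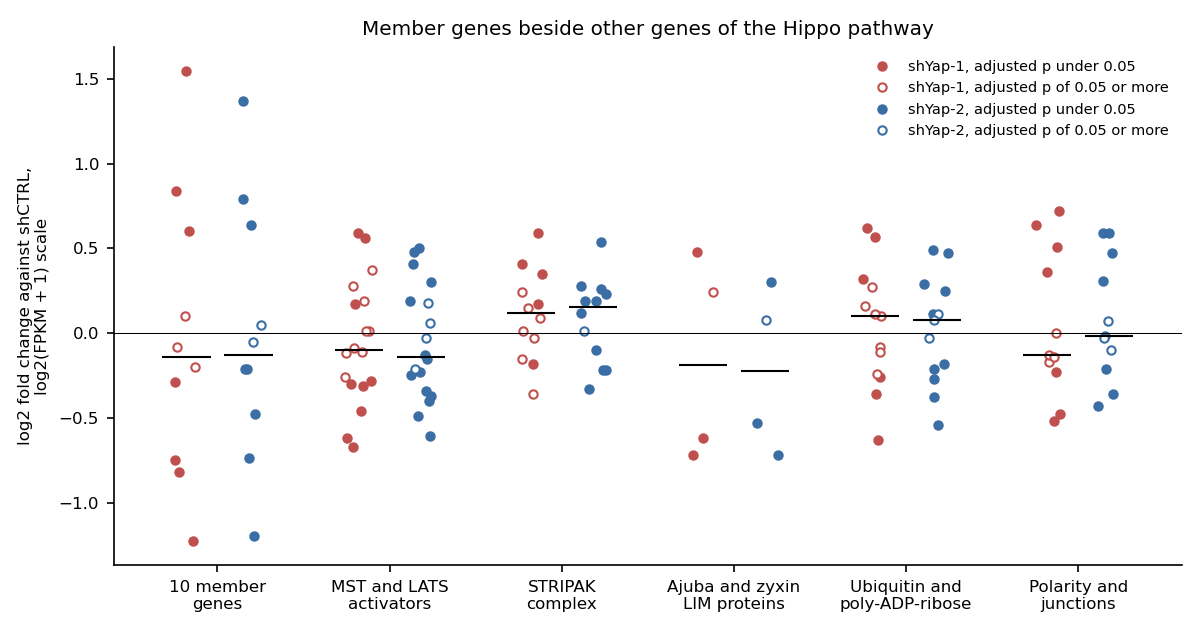
log2 fold change against shCTRL on the log2(FPKM + 1) scale (y axis) of the 10 members and of 5 lists of other Hippo pathway genes, with 1 point per tested gene and hairpin (sideways spread only separates points) and a bar at each median. Filled points have a limma adjusted p under 0.05; the medians lie between -0.23 and 0.16, and Amot, Limd1, Lats2, Sav1 and Amotl2 lie outside the range of all the other lists with shYap-1.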

How the data were processed

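Per the labels' protocols, RNA was taken up in Trizol, enriched for mRNA with oligo(dT) and sequenced on an Illumina instrument. The authors deposited gene values as FPKM in 2 tables, one per hairpin, both with the same shCTRL values. Per the submitters' processing notes, fastp 0.18.0, HISAT2 2.1.0, StringTie 1.3.4, RSEM and the mm10 build were used, and the step each served is not given in the sources used here. Symbols, exonic length, GC content and positions came from GENCODE vM21.

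Genes with an FPKM of at least 1 in at least 3 fitted libraries were tested with limma 3.58.1 (R 4.3.3, trend on abundance) on log2(FPKM + 1), within each table against shCTRL and over all 9 libraries between hairpins, with Benjamini-Hochberg adjustment and a threshold of 0.05. Family shares were compared by exact permutation. The fits were tested on simulated data. Depth was estimated from FPKM steps of genes with low values, so it covers counting error only, and the least covered member value, of Stk4, rests on about 810 fragments (a counting error of 3.5%). Named from every further pathway list were at most 4 genes, ranked by adjusted p of both hairpins' average against shCTRL, and 1 gene that this rule picks is not reported here. Members, lists and tests were chosen with earlier results of these data known. Summaries were made with Python 3.11.15, pandas 2.3.3 and scipy 1.17.1.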

Additional observations from a re-analysis of the deposited data

How the results depend on the processing

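The calls of Lats2, Stk4, Sav1, Amot, Amotl2 and Limd1 against shCTRL kept their direction and stayed past the threshold under all 16 alternatives run for each hairpin: a pseudocount of 0.1, no filter, an FPKM of at least 5, scaling by median of ratios or by a trimmed mean, no abundance trend in limma, a GC trend removed, a replicate block with and without it, each library left out, and all 9 libraries in 1 fit. Lats1 and Stk3 did not, as given beside them, and with the replicate block and a GC trend removed Lats1 with shYap-1 was -0.12 (adjusted p = 0.097). The cause was not tested. With a GC trend removed, alone or with the replicate block, the shYap-1 change became 0.02 for Stk3 and -0.02 for Nf2, and the shYap-2 change of Nf2 -0.04. The last was -0.04 with trimmed-mean and -0.03 with median-of-ratios scaling.

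Between the hairpins 353 genes were called, 1135 with a GC trend removed, 141 with the replicate block and 942 with both. Leaving out 1 library gave 1 to 1646 genes, the most without shYap-1 replicate 2. Members called went from 0 to 1, which was Sav1, with a GC trend removed, alone or with the block, and ranged from 0 to 1 with 1 library left out. Other pathway genes called went from 0 to 1 with a GC trend removed and ranged from 0 to 4 with 1 library left out. The hairpin difference of Lats1 ranged from -0.02 without shYap-1 replicate 2 to 0.14 without replicate 1, and that of Stk3 from -0.19 without shYap-1 replicate 2 to 0.11 without replicate 1, with 0.04 without replicate 3 and 0.02 without shYap-2 replicate 2. That of Amotl2 was -0.01 without shYap-1 replicate 3. Deviations of same-numbered libraries of different groups correlated from -0.237 to 0.344, and those of differently numbered ones from -0.393 to 0.325. Numbers were therefore not taken to pair libraries. With the replicate block, 6785 genes were called with shYap-1 and 7808 with shYap-2, against 6943 and 7823 without.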

Other observations

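Among the 58 other pathway genes tested, shYap-1 replicate 2 held the lowest or the highest value of all 9 libraries for 34 (58.6%, beside 52.3% of all 10733 genes tested). Pdcd10, which encodes a STRIPAK subunit, read 32.87 and 31.47 FPKM in shYap-1 replicates 1 and 3 and 17.05 in replicate 2, with 23.5 to 25.16 in shCTRL. Mob1a, which encodes the LATS co-activator MOB1A, read 50.6 and 49.23 in replicates 1 and 3 and 33.99 in replicate 2, with 50.36 to 55.75 in shCTRL. Map4k2 read 4.84 and 5.69 in replicates 1 and 3 and 9.29 in replicate 2, with 5.43 to 8.4 in shCTRL. GC content was 35.9% in Pdcd10, 43.4% in Mob1a and 55.2% in Map4k2. Of the 58 genes, 20 had their lowest value in shYap-1 replicate 2, and their GC content ran from 35.9% (Pdcd10) to 48.4% (Frmd6 and Stk38). Another 14 had their highest value there. Among those, Lpp (42.9%), Fgfr1op2 (43.3%) and Nedd4 (45.9%) were low in GC content. The rest ran from 51.4% (Fat1) to 58.3% (Llgl1). The part of GC content in these values was not tested. All genes named here were chosen after their values were seen.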
